A study of Homo sapiens with 4 samples.

Results

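The 45 genes described here are interferon-stimulated genes, taken by gene symbol from a list of such genes that was drawn up with earlier results of these data known. The deposited expression tables hold 58051 gene identifiers, of which 37596 had a value above 0 in at least 1 library, and each of the 45 symbols was found. XAF1 was matched by its gene identifier, since the H441 comparison table carried no row for it. RNA was sequenced from a pair of human cancer cell lines of epithelial type, both labelled wild type. H441 was derived from lung adenocarcinoma, and HT29 from colorectal adenocarcinoma. Each line was kept for 7 days in RPMI-1640, a standard culture medium, or in HPLM, a medium made to hold nutrients at the levels of human plasma, in each case with 10% fetal bovine serum and penicillin-streptomycin. The labels name no interferon treatment and no infection. Each of the 4 groups has 3 numbered libraries, 12 in all. The labels do not say whether the 3 libraries of a group came from separate cultures, so the p-values reflect only how far these libraries differ, a spread that may be technical. Values are TPM, a level per transcript length on a fixed total within each library. In these bulk libraries, fewer cells that express a gene and less RNA per cell cannot be told apart.

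Interferons are secreted proteins that cells release on sensing viral nucleic acid. Type I and type III interferons bind their receptors, the kinases JAK1 and TYK2 then phosphorylate STAT proteins, and these join IRF9 to form the complex ISGF3. ISGF3 binds the interferon-stimulated response element (ISRE) in promoters, whereas interferon gamma acts through STAT dimers at the gamma-activated site (GAS). The induced genes encode antiviral effectors, the ubiquitin-like protein ISG15 with its conjugation enzymes, nucleic acid sensors and the transcription factors of the pathway itself. Many of them are also transcribed at a low level without added interferon, and cancer cell lines are known to differ widely in that level.

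The letters that ISGF3 and STAT dimers are known to bind were looked up in the promoters of the members. RefSeq promoters (GRCh38.p14) matched 34 of the 45 members, with 45 start sites among them. In the 250 bases before the start, the ISRE letters (GAAA, any 2 bases, GAAA), read on both strands, stood in 22 of the 34 members (64.7%), against 3.71% of 27305 genes in the table. The GAS letters TTCNNNGAA, also read on both strands, stood in 10 of the 34 members (29.4%), against 8.09% of all genes. The 2 motifs overlapped in 4 of the 45 member promoters. A match of letters is a description and not a measured binding site. The stretches below surround the matches of 6 members whose values are given later, written 5′ to 3′ on the strand of the gene with the matched letters in capitals. The first 5 hold the ISRE letters and the last holds the GAS letters.
ISG15 (chr1:1013350-1013439, plus strand): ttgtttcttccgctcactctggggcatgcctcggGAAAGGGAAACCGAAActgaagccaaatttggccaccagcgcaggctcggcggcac
IFI6 (chr1:27672236-27672325, minus strand): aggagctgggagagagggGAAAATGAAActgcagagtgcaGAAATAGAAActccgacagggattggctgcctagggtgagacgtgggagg
IFIT1 (chr10:89392480-89392569, plus strand): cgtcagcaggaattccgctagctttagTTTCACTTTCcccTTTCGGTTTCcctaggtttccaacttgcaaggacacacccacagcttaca
IFI27 (chr14:94110601-94110690, plus strand): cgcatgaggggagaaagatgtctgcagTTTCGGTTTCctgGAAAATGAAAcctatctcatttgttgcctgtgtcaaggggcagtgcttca
OAS3 (chr12:112938422-112938473, plus strand): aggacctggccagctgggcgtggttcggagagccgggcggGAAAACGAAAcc
IRF1 (chr5:132490849-132490937, minus strand): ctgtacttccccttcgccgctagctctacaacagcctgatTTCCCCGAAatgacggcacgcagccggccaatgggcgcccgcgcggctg
In ISG15 the window holds 2 matches that run into each other, and in IFI27 it holds 1 match on each strand. In IFIT1 both matches are read on the opposite strand and therefore appear as TTTC repeats. The OAS3 match ends 3 bases before the RefSeq start used here, the nearest of the 6 sequences. The GENCODE models of OAS3, ISG15 and IFI27 begin further upstream, so that these windows lie inside those models. IRF1, the member that changed most between media in H441, holds no ISRE letters in this window and 1 GAS match, from 124 to 116 bases before its start. OAS1, the member that fell most in H441, likewise holds no ISRE letters and 1 GAS match in the bases searched. The same holds for IRF9 and IFI35, which were not called changed in H441.

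Library depth ran from 14151527 to 30581810 reads assigned to genes. The lung markers NKX2-1, SFTPA1, SFTPB, NAPSA, SLC34A2 and KRT7 summed to 2830 to 2970 TPM in the H441 libraries and to 8.13 to 16.3 TPM in HT29. The colon markers CDX1, CDX2, KRT20, VIL1, CDH17 and LGALS4 summed to 3.57 to 5.84 TPM in H441. In HT29 they summed to 1884 to 2114 TPM in RPMI-1640 and to 1318 to 1518 TPM in HPLM, although CDX1 stayed under 1 TPM in every library. Markers of 3 other cell types were low. The 10 leukocyte markers summed to 14.4 to 49.3 TPM over all libraries. In HT29 their sum was 29.8 TPM or more in RPMI-1640 and 20.5 TPM or less in HPLM. The 6 fibroblast markers summed in H441 to 59.8 to 64.1 TPM in RPMI-1640 and 71.8 to 77.4 TPM in HPLM. In HT29 they summed to 0.677 to 2.28 TPM, and the 5 endothelial markers summed to at most 4.75 TPM in any library. CLEC4C and LILRA4, markers of the plasmacytoid dendritic cells that secrete type I interferon, were at or near 0, with at most 0.172 and 0.102 TPM in any library. Library 1 of HT29 in RPMI-1640 stood apart from the other libraries of its group. Its read counts differed from those of libraries 2 and 3 by a chi-square of 178 and 227 per degree of freedom, against 12.2 between libraries 2 and 3. It was the shallowest library, and its mitochondrially encoded genes took 19.3% of TPM, against 30.2% and 28.8% in libraries 2 and 3. HT29 comparisons are therefore given with and without it where its removal changes a call or moves a value by over 1.5 times.

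Summed over the 45 genes, the level was 1636 to 1836 TPM in the 6 H441 libraries, 7088 to 8190 TPM in the 3 HT29 libraries in HPLM, and 5928 and 6237 TPM in HT29 libraries 2 and 3 in RPMI-1640. HT29 library 1 in RPMI-1640 reached 13370 TPM. The H441 libraries of the 2 media overlapped in this sum, and every HT29 library lay above every H441 library. In H441 the sum was carried mainly by LGALS3BP, IFITM3 and BST2, and in HT29 by IFI6, ISG15, LGALS3BP, IFITM3, BST2 and IFI27. IFI27 stood above IFITM3 and BST2 in RPMI-1640 libraries 2 and 3 and below both in the other HT29 libraries.

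**Figure D1:**
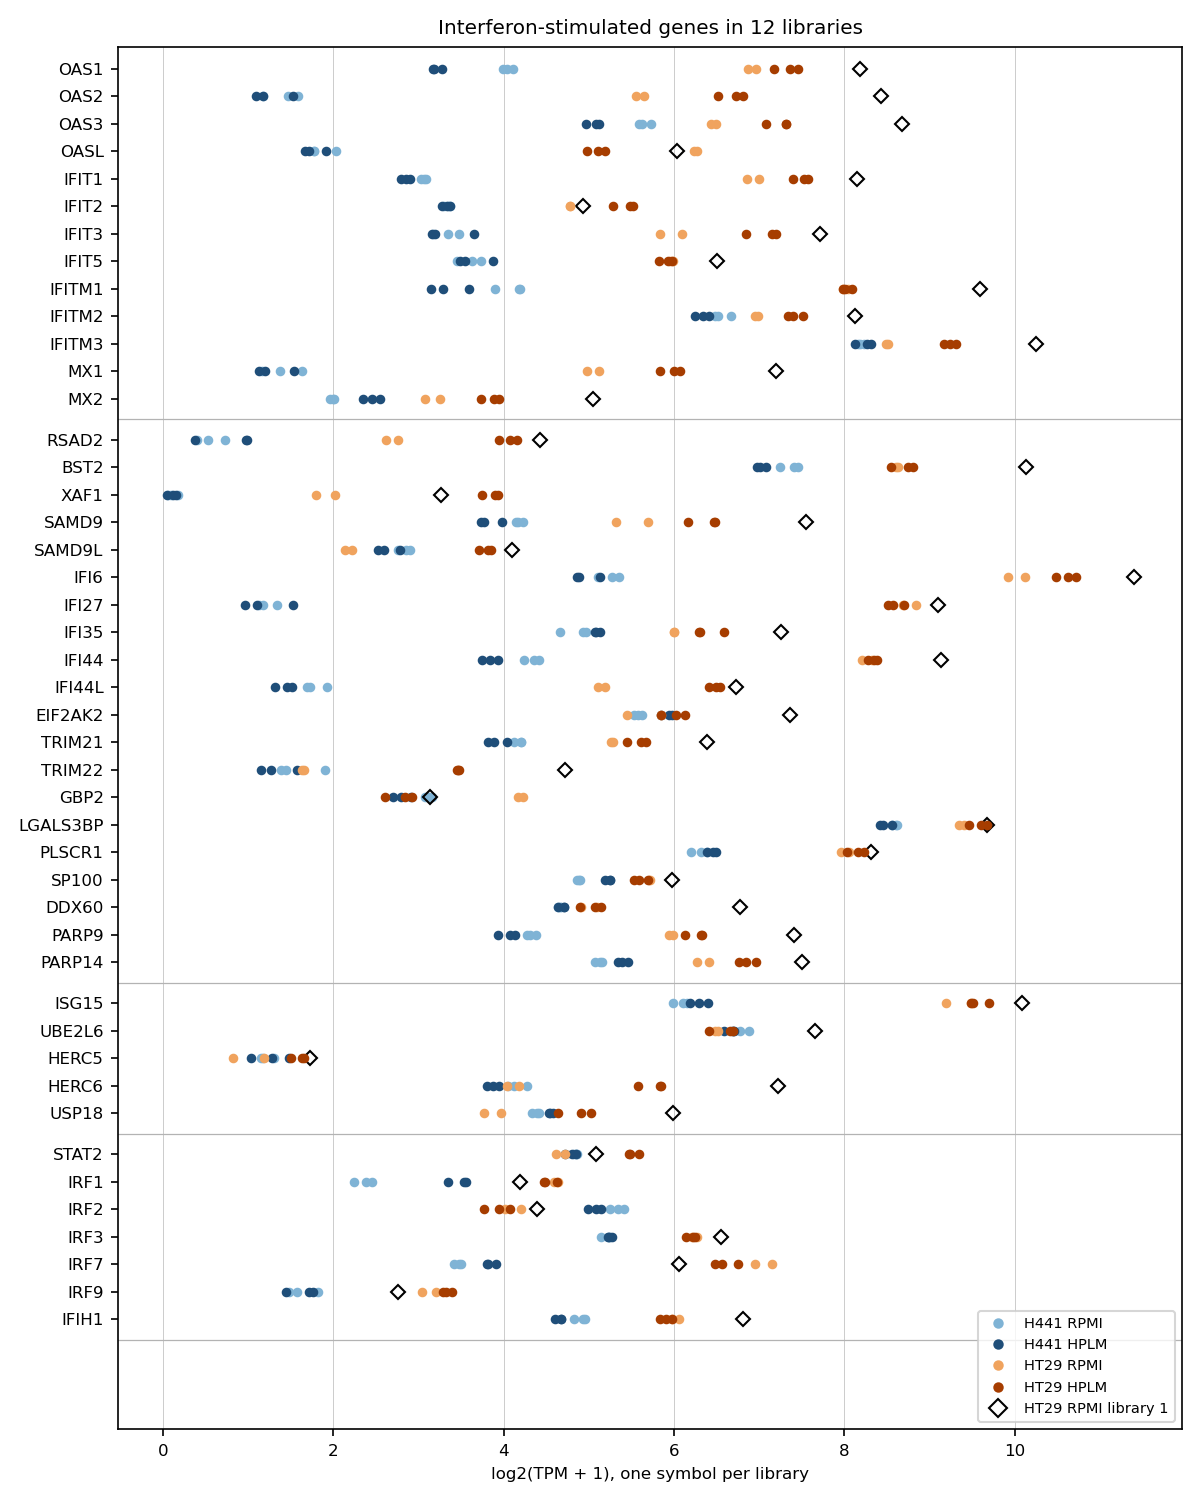
Level of each of the 45 genes in each of the 12 libraries, as log2(TPM + 1) on the horizontal axis, with genes grouped by role from top to bottom (antiviral families, other effectors, ISG15 conjugation, transcription factors and sensor). Light and dark blue mark H441 in RPMI-1640 and HPLM, light and dark orange mark HT29, and the open diamond is HT29 RPMI-1640 library 1. The diamond lies to the right of the light orange points for 40 of the 45 genes, and IRF2 is the gene whose H441 points all lie to the right of the HT29 points.

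The first comparison asked how the level of these genes differs between the lines in each medium. All 12 libraries entered 1 limma fit on log2(TPM + 1), and p-values were adjusted (Benjamini-Hochberg, 19212 genes tested, threshold 0.05). In RPMI-1640, 34 of the 45 members were higher in HT29 and 1, IRF2, was lower, while 25.0% of all genes tested were higher and 30.3% lower. In HPLM, 38 were higher and 1, again IRF2, was lower, against 22.3% and 40.4% of all genes. The median log2 difference of the members was 1.61 in RPMI-1640 and 1.69 in HPLM, where the median over all genes was -0.08 and -0.27. Without HT29 library 1, 36 members were higher and 5 lower in RPMI-1640 (30.8% and 40.7% of all genes), and 41 higher and 1 lower in HPLM (27.6% and 47.9%). The lines were deposited in separate tables, so that the line and any batch between the tables cannot be told apart. The fit shares 1 variance per gene over the 4 groups, although HT29 in RPMI-1640 spread most.

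Among other effectors, IFI27, a mitochondrial protein that is a widely used marker of the interferon response, showed the widest gap. It stood at 1.54, 1.18 and 1.25 TPM in H441 in RPMI-1640 and at 1.89, 0.951 and 1.15 TPM in HPLM. In HT29 it stood at 549.6, 413 and 458 TPM in RPMI-1640 and 414, 381 and 364 TPM in HPLM. The log2 difference was 7.67 ± 0.16, adjusted p = 6.04e-11 in RPMI-1640 and 7.40 ± 0.16, adjusted p = 6.9e-11 in HPLM, and 7.55 in RPMI-1640 without library 1. IFI6, an inhibitor of apoptosis and of flavivirus replication, was the most abundant member in HT29. It measured 37.6, 40.1 and 33.5 TPM in RPMI-1640 and 33.9, 28.1 and 28.5 TPM in HPLM in H441, and 2696, 972 and 1112 TPM in RPMI-1640 and 1685, 1574 and 1429 TPM in HPLM in HT29. These are 43.0 and 51.8 times the H441 means in the respective medium, or 28.1 times in RPMI-1640 with libraries 2 and 3 alone, and every HT29 library lay above every H441 library.

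The antiviral families OAS, IFIT, IFITM and MX were higher in HT29 for 12 of 13 genes in RPMI-1640 and for 13 of 13 in HPLM. Without HT29 RPMI-1640 library 1 all 13 passed in RPMI-1640 too. OAS2, an enzyme that makes the 2′-5′ oligoadenylates that activate RNase L, measured 1.68 ± 0.389 TPM (SD, n = 3) in H441 in RPMI-1640 and 1.43 ± 0.399 TPM in HPLM. Its HT29 libraries held 344, 49.0 and 46.2 TPM in RPMI-1640 and 111, 105 and 90.4 TPM in HPLM, a log2 difference of 5.13 ± 0.61, adjusted p = 3.86e-05 in RPMI-1640 and 5.42 ± 0.61, adjusted p = 2.12e-05 in HPLM. Without library 1 the RPMI-1640 difference was 4.19, and the ratio of means was 28.3 instead of 87.2. MX1, a GTPase that traps viral nucleocapsids, held 1.60, 2.11 and 1.24 TPM in RPMI-1640 and 1.92, 1.18 and 1.29 TPM in HPLM in H441 and 146, 33.8 and 30.5 TPM in RPMI-1640 and 66.5, 63.2 and 56.2 TPM in HPLM in HT29. Its log2 difference was 4.37 ± 0.47 in RPMI-1640, 3.66 there without library 1, and 4.68 ± 0.47 in HPLM. IFIT1, which binds viral RNA lacking 2′-O methylation of its cap, held 7.36, 7.18 and 7.53 TPM and 6.45, 5.92 and 6.22 TPM in the H441 media. In HT29 IFIT1 reached 283, 115 and 127 TPM in RPMI-1640 and 189.6, 183 and 167 TPM in HPLM, or 16.5 times the H441 mean in RPMI-1640 when library 1 is left out and 29.1 times in HPLM. IFITM3, which blocks virus entry at endosomes, was already high in H441, with 292 ± 6.83 TPM in RPMI-1640. Its log2 difference of 0.89 ± 0.38, adjusted p = 0.0675 did not pass in RPMI-1640, and without library 1 a smaller one, 0.31, adjusted p = 0.00424, passed. In HPLM it was 1.01 ± 0.38, adjusted p = 0.0379, a call that was lost in 9 of the 12 fits that left out 1 library and in the fit with no filter. HT29 RPMI-1640 library 1 enters the variance of that fit, and without it the HPLM difference was 1.01 ± 0.07, adjusted p = 4.62e-07.

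ISG15, the ubiquitin-like modifier, held 70.0, 68.2 and 62.4 TPM in RPMI-1640 and 72.0, 77.8 and 83.6 TPM in HPLM in H441 and 1089, 584 and 718 TPM in RPMI-1640 and 832, 732 and 717 TPM in HPLM in HT29. The log2 difference was 3.51 ± 0.19, adjusted p = 7.74e-08 in RPMI-1640 and 3.27 ± 0.19, adjusted p = 1.23e-07 in HPLM. Of the 5 genes of the ISG15 system, 1 was higher in RPMI-1640, ISG15 itself, and 2 in HPLM, ISG15 and HERC6. UBE2L6, its E2 enzyme, HERC5, its main E3 ligase, and USP18, the protease that removes it, differed by 0.10, 0.03 and 0.20 in RPMI-1640, with adjusted p = 0.763, 0.906 and 0.733. In HPLM their differences were -0.08, 0.33 and 0.30, with adjusted p = 0.819, 0.176 and 0.583. Without library 1, USP18 and UBE2L6 were lower in HT29 than in H441 in RPMI-1640, at -0.51, adjusted p = 0.00212 and -0.28, adjusted p = 0.0259, and in HPLM the differences of HERC5 and USP18 passed, with adjusted p = 0.0398 and 0.0171. HERC6, a relative of HERC5, differed by 1.88, adjusted p = 0.0292 in HPLM, a call lost in 6 of the 12 fits that left out 1 library and in the fit with no filter. Without HT29 RPMI-1640 library 1 the HERC6 difference in HPLM was 1.88 ± 0.09, adjusted p = 6.51e-08. In RPMI-1640 the HERC6 difference was 1.00, adjusted p = 0.223, and -0.04 without library 1.

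Of the transcription factors, IRF7, the factor that amplifies interferon alpha production, was 11.0 times as high in HT29 as in H441 in RPMI-1640 (13.2 times without library 1) and 7.22 times in HPLM. IRF9, the DNA-binding subunit of ISGF3, measured 2.10 ± 0.379 and 2.14 ± 0.367 TPM in H441, and 5.79, 8.26 and 7.23 TPM in RPMI-1640 and 9.05, 9.49 and 8.78 TPM in HPLM in HT29. By mean it was the lowest of the 7 genes of its list in all 4 groups. IRF3, which is activated directly by nucleic acid sensing, held 35.9 ± 1.43 and 36.9 ± 0.688 TPM in H441 and 93.1, 72.9 and 76.5 TPM in RPMI-1640 and 75, 73.8 and 69.8 TPM in HPLM in HT29, and its log2 difference was 1.14 in RPMI-1640 and 0.96 in HPLM. IRF2, which represses many of these promoters, went the other way, with 41.7, 36.9 and 39.7 TPM in RPMI-1640 and 34.4, 30.8 and 33.1 TPM in HPLM in H441. In HT29 it held 20.1, 17.5 and 15.2 TPM in RPMI-1640 and 15.9, 14.4 and 12.6 TPM in HPLM, a log2 difference of -1.13 ± 0.12, adjusted p = 2.09e-05 in RPMI-1640 and -1.15 ± 0.12, adjusted p = 1.54e-05 in HPLM. STAT2 did not differ past the threshold in RPMI-1640 (-0.05, adjusted p = 0.771) and was higher in HT29 in HPLM (0.73, adjusted p = 0.000386). Without library 1 STAT2 was lower in HT29 in RPMI-1640, at -0.18, adjusted p = 0.0345.

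Several other effectors were far apart in level. XAF1, a proapoptotic inhibitor of the IAP proteins, stayed under 1 TPM in H441, at 0.0658, 0.134 and 0.0402 TPM in RPMI-1640 and 0.0312, 0.115 and 0.0828 TPM in HPLM, and reached 8.60, 3.06 and 2.47 TPM in RPMI-1640 and 14.3, 13.9 and 12.4 TPM in HPLM in HT29. RSAD2, which encodes the antiviral enzyme viperin, was also under 1 TPM in H441, at 0.660, 0.322 and 0.440 TPM in RPMI-1640 and 0.299, 0.973 and 0.983 TPM in HPLM, and held 20.6, 5.75 and 5.16 TPM in RPMI-1640 and 15.9, 16.8 and 14.5 TPM in HPLM in HT29. Both passed in each medium, with log2 differences of 2.25 and 3.75 for XAF1 and 2.72 and 3.28 for RSAD2. They met the filter of the 12-library fit through HT29 libraries alone, so that the filter itself favoured a higher level in HT29. Both are counted among the higher members in each medium. Without library 1 the RPMI-1640 differences were 1.80 and 2.13. LGALS3BP, a secreted glycoprotein, was high in both lines, with 377, 388 and 392 TPM in RPMI-1640 and 349, 341 and 378 TPM in HPLM in H441 and 818, 651 and 679 TPM in RPMI-1640 and 817, 777 and 704 TPM in HPLM in HT29. BST2, the tetherin that holds budding virions at the membrane, was 3.86 times as high in HT29 in RPMI-1640, 2.38 times there without library 1, and 3.22 times in HPLM. The members that missed the threshold in both media were DDX60, HERC5, USP18, UBE2L6 and EIF2AK2. Without library 1 the one of them that missed it in both was EIF2AK2. SAMD9L did not pass in RPMI-1640 with all libraries (-0.02, adjusted p = 0.974) and was lower in HT29 there without library 1 (-0.66, adjusted p = 0.000114).

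**Figure D2:**
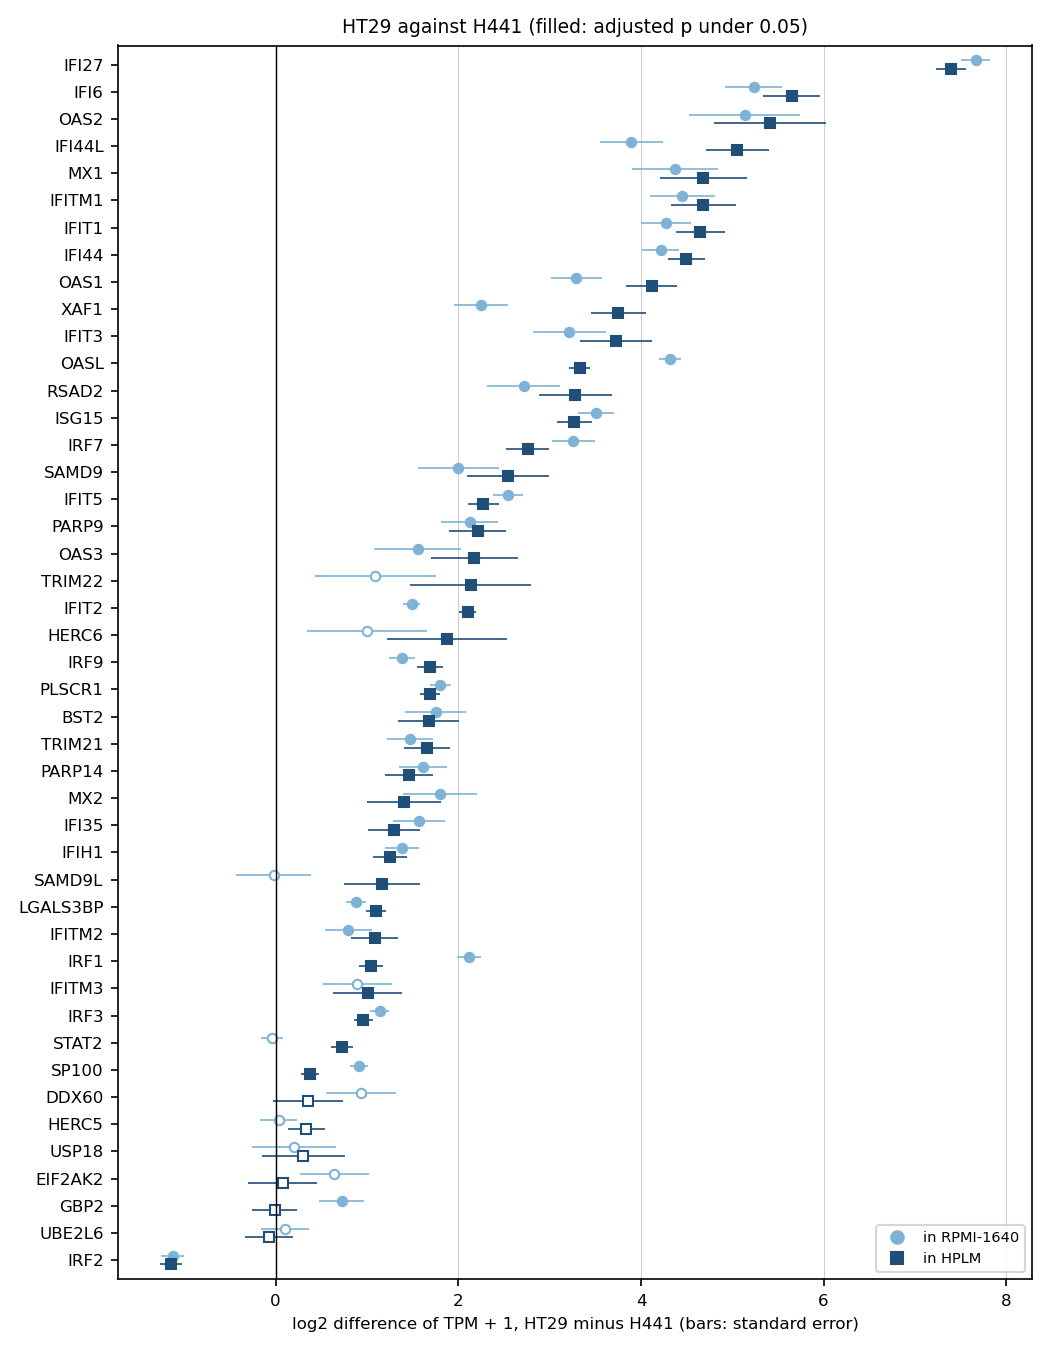
Log2 difference of TPM + 1 between HT29 and H441 for the 45 genes, from the fit over 12 libraries. Light circles stand for RPMI-1640 and dark squares for HPLM, filled symbols have an adjusted p under 0.05, and bars are the standard error. IFI27 is at the top at 7.67 and 7.40, and IRF2 is at the bottom at -1.13 and -1.15.

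The second comparison asked what HPLM changed in H441. Here 43 of the 45 members passed the filter (1 TPM or more in 3 or more of the 6 libraries), and XAF1 and RSAD2 did not. Of the 43, 7 rose and 14 fell, at rates to be read against the 33.7% and 11.3% of all 16458 genes that rose and fell. The members' median log2 change was -0.10 and that of all genes was 0.14. That positive median depends on the scaling: after scaling by a trimmed mean, which shifts the median of all genes to 0.00, 5 members rose and 22 fell, against 22.5% of all genes in each direction. IRF1, IRF7, MX2, EIF2AK2 and SP100 rose under both scalings, whereas PARP14 and USP18 did not pass after the second. Mitochondrially encoded genes took 24.1% to 28.9% of TPM in the RPMI-1640 libraries and 17.5% to 21.7% in the HPLM libraries. Leaving these genes out gave 5 members raised and 20 lowered, against 4004 and 3355 of all 17301 genes. With a single library left out, 9 to 14 members were lowered: 9 without RPMI-1640 library 1, 9 without HPLM library 3 and 14 without HPLM library 1. These left-out counts are given without the share of all genes.

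The transcription factor IRF1, an interferon gamma-responsive activator, changed most. It held 4.22, 4.47 and 3.73 TPM in RPMI-1640 and 10.8, 9.18 and 10.6 TPM in HPLM. All HPLM libraries lay above all RPMI-1640 libraries, at 2.46 times the mean and a log2 change of 1.12 ± 0.09, adjusted p = 0.000538. IRF7 held 10.1, 10.3 and 9.67 TPM in RPMI-1640 and 14.0, 13.0 and 13.1 TPM in HPLM and rose by 0.38 ± 0.05, adjusted p = 0.00313, also without overlap between the media. In the authors' table the IRF7 rise did not pass, at 0.25, adjusted p = 0.1095. IRF2 held 41.7, 36.9 and 39.7 TPM in RPMI-1640 and 34.4, 30.8 and 33.1 TPM in HPLM and fell, at -0.26 ± 0.07, adjusted p = 0.027. The IRF2 call was lost in 4 of the 6 fits that left out 1 library and with no filter. IFIH1, which encodes the cytoplasmic RNA sensor MDA5, held 27.3, 30.0 and 29.5 TPM in RPMI-1640 and 24.5, 23.2 and 24.6 TPM in HPLM and fell, at -0.25 ± 0.06, adjusted p = 0.0155. The IFIH1 call was lost with the replicate block, a fit that adds the library number as a term. The other members of this list showed no change past the threshold with TPM as deposited. STAT2 held 27.9, 28.2 and 27.4 TPM in RPMI-1640 and 26.8, 25.4 and 27.8 TPM in HPLM (-0.06, adjusted p = 0.389). It passed as lowered after trimmed mean scaling and in the authors' table, there at -0.22, adjusted p = 0.00112. IRF3 and IRF9, whose means are given above, changed by 0.04 and 0.02, with adjusted p = 0.559 and 0.923.

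Of the 13 genes of the antiviral families, 4 fell, 1 rose and 8 did not pass. OAS1 fell most of all members. Its libraries held 15.4, 16.3 and 14.9 TPM in RPMI-1640 and 8.11, 8.04 and 8.71 TPM in HPLM, so that the HPLM mean was 0.533 times the RPMI-1640 mean, with a log2 change of -0.83 ± 0.06, adjusted p = 0.000406. OAS3, its neighbour in the OAS cluster of chromosome 12 (chr12:112906777-112933222 for OAS1 and chr12:112938352-112973249 for OAS3, GRCh38), held 48.5, 52.1 and 47.2 TPM in RPMI-1640 and 33.0, 30.4 and 33.8 TPM in HPLM and fell with it, at -0.59 ± 0.07, adjusted p = 0.0015. OAS2 lies next in the cluster (chr12:112978395-113011723) and changed by -0.15 ± 0.16, adjusted p = 0.492, at levels of 2.01, 1.77 and 1.25 TPM in RPMI-1640 and 1.88, 1.26 and 1.14 TPM in HPLM that overlap. The members of the cluster therefore did not all pass in the same direction, although OAS2 is read at less than 3 TPM and is the least precise of them.

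IFITM1, a membrane protein that blocks virus entry at the cell surface, held 14.0, 17.3 and 17.1 TPM in RPMI-1640 and 11.1, 7.87 and 8.79 TPM in HPLM and fell, at -0.75 ± 0.14, adjusted p = 0.00906. IFITM2 held 90.9, 101 and 88.2 TPM in RPMI-1640 and 74.7, 80.1 and 84.2 TPM in HPLM and missed the threshold at -0.23, adjusted p = 0.0576, and IFITM3, with 286, 289 and 299 TPM in RPMI-1640 and 306, 278 and 317 TPM in HPLM, changed by 0.04, adjusted p = 0.644. After trimmed mean scaling IFITM2 passed as lowered and IFITM3 did not. In the authors' table both were lowered, at -0.38, adjusted p = 6.8e-07 and -0.12, adjusted p = 0.0403. The annotated models of IFITM1 (chr11:313506-315272) and IFITM2 (chr11:307631-315272) overlap, and the IFITM genes are close copies of each other. Reads can therefore be split between them by the counting, and the values of the 3 genes are uncertain to that extent. MX2, which blocks nuclear import of retroviral genomes, was the one gene of these families that rose, with 3.03, 2.91 and 2.99 TPM in RPMI-1640 and 4.47, 4.08 and 4.83 TPM in HPLM and a log2 change of 0.45 ± 0.06, adjusted p = 0.00319. MX1, next to it on chromosome 21, changed by -0.10, adjusted p = 0.643, at levels given above. IFIT1 fell slightly, at -0.22 ± 0.05, adjusted p = 0.0178. That call was lost in 2 of the 6 fits that left out 1 library and with the replicate block. IFIT2 held 9.34, 8.89 and 9.18 TPM in RPMI-1640 and 9.07, 8.70 and 9.31 TPM in HPLM and IFIT3 held 8.02, 10.1 and 9.22 TPM in RPMI-1640 and 11.6, 7.93 and 8.16 TPM in HPLM, and their changes of -0.02 and 0.00 did not pass (adjusted p = 0.818 and 0.988).

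Of the 18 other effectors tested, 7 fell, 3 rose and 8 did not pass. IFI44, a GTP-binding-like cytoplasmic protein, held 19.5, 20.4 and 17.9 TPM in RPMI-1640 and 13.3, 12.4 and 14.3 TPM in HPLM and fell, at -0.50 ± 0.07, adjusted p = 0.00377. Its neighbour and relative IFI44L held 2.24, 2.80 and 2.31 TPM in RPMI-1640 and 1.86, 1.75 and 1.5 TPM in HPLM and fell, at -0.35 ± 0.09, adjusted p = 0.0222. The IFI44L call was lost in 2 of the 6 fits that left out 1 library. BST2 held 175, 169 and 150.5 TPM in RPMI-1640 and 125, 128 and 135 TPM in HPLM, without overlap, a log2 change of -0.35 ± 0.07, adjusted p = 0.0128 that did not pass with the replicate block. SAMD9, an antiviral restriction factor, fell from 17.8, 17.0 and 16.8 TPM to 14.8, 12.6 and 12.3 TPM (-0.36, adjusted p = 0.0147), and GBP2, a guanylate-binding protein that attacks pathogen membranes, fell from 7.72, 7.47 and 7.93 TPM to 6.55, 5.51 and 5.94 TPM (-0.32, adjusted p = 0.0138). The SAMD9 call was lost without RPMI-1640 library 1. PARP9 and TRIM21 also fell, with log2 changes of -0.28 and -0.26. The genes that rose were EIF2AK2, which encodes the double-stranded RNA kinase PKR, SP100, a nuclear body protein, and PARP14, an ADP-ribosyltransferase. EIF2AK2 rose from 46.8, 48.2 and 45.3 TPM to 62.0, 56.5 and 60.7 TPM, at 0.35 ± 0.06, adjusted p = 0.00536. SP100 rose from 28.8, 28.6 and 28.1 TPM to 37.2, 35.5 and 37.2 TPM, at 0.35 ± 0.05, adjusted p = 0.00241. PARP14 rose from 34.1, 34.5 and 32.8 TPM to 43.1, 40.9 and 39.4 TPM, at 0.28 ± 0.05, adjusted p = 0.01. The PARP14 call was lost with trimmed mean scaling, with median centring and without mitochondrially encoded genes.

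In the ISG15 system, ISG15 itself changed by 0.21 ± 0.08, adjusted p = 0.0705 and did not pass. HERC6 held 18.3, 16.4 and 15.5 TPM in RPMI-1640 and 13.7, 14.4 and 13.0 TPM in HPLM and fell, at -0.27, adjusted p = 0.0334. Its call was lost in 4 of the 6 fits that left out 1 library, with no filter and with the replicate block. USP18 held 20.4, 19.1 and 19.9 TPM in RPMI-1640 and 22.9, 22.4 and 22.1 TPM in HPLM, a rise of 0.17 ± 0.05, adjusted p = 0.0292 that was the smallest of all calls and turned to -0.0068 when libraries were centred on their median. The USP18 call was lost in all 6 fits that left out 1 library. It was kept in 2 of 9 other settings, and lost with edgeR and in the authors' table.

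**Figure D3:**
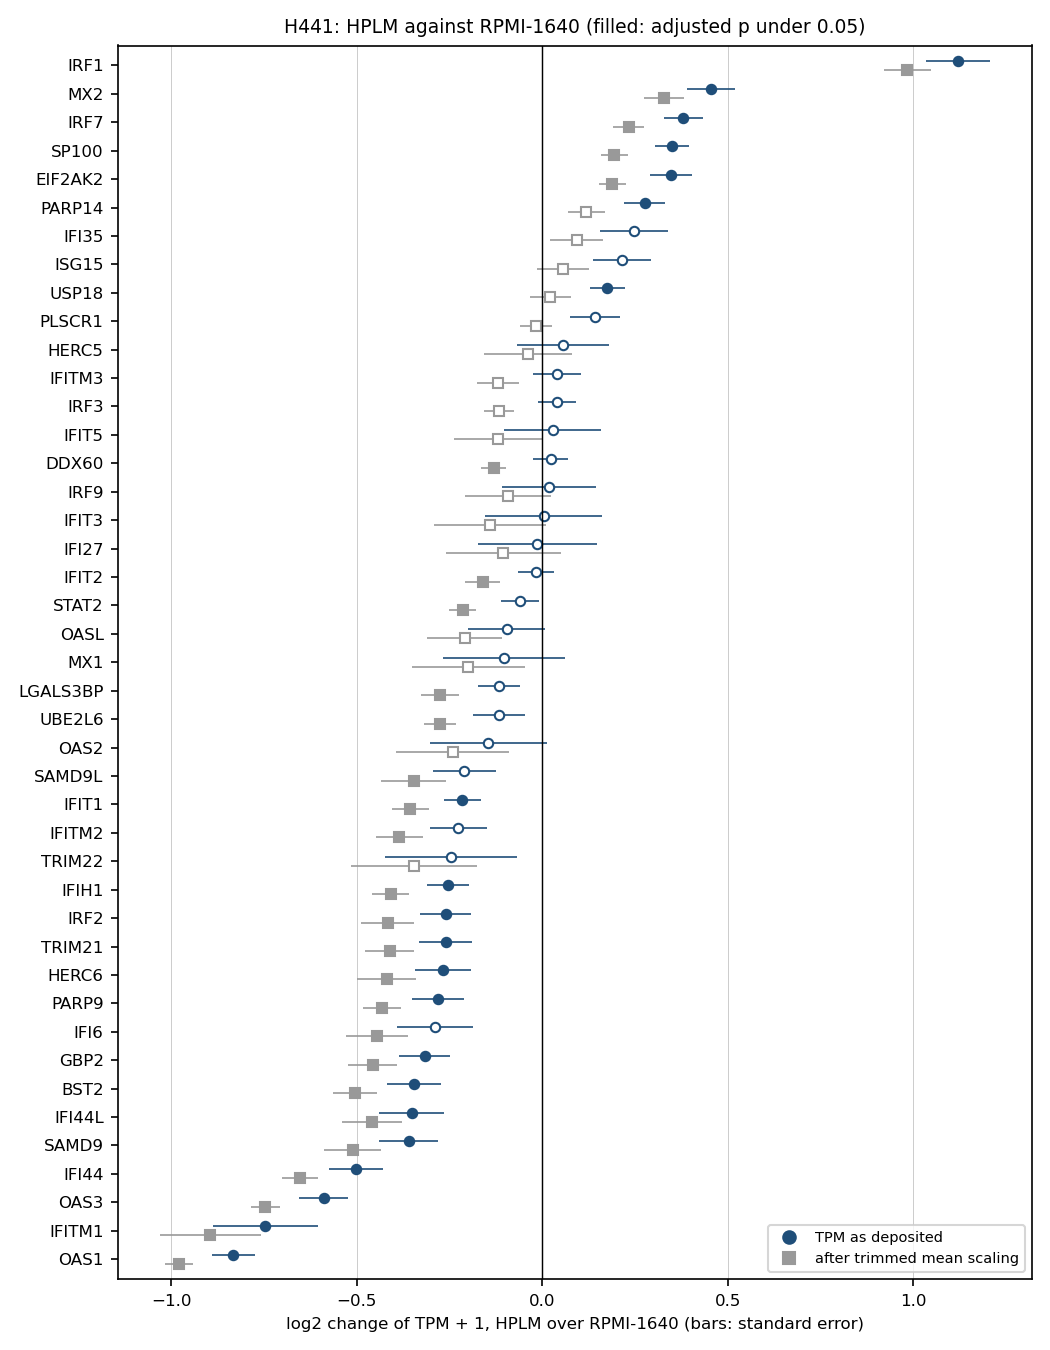
Log2 change of TPM + 1 in H441 between HPLM and RPMI-1640 for the 43 members tested, 3 libraries per medium. Circles use TPM as deposited and squares use TPM after trimmed mean scaling, filled symbols have an adjusted p under 0.05, and bars are the standard error. IRF1 is at the top at 1.12 and OAS1 at the bottom at -0.83, and the squares lie to the left of the circles throughout.

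The third comparison asked the same of HT29. With all 6 libraries, 0 of the 45 members rose and 1, OASL, fell, against 2.53% and 3.58% of all 16352 genes. At an unadjusted p under 0.05, 3 rose and 2 fell in the same limma fit, where 1807 and 2245 of all 16352 genes did. edgeR's quasi-likelihood test on the recovered reads called 3 raised and 1 lowered, against 834 and 911 of all 16126 genes. In the authors' deposited table, IFIT2, STAT2 and XAF1 were raised and OASL and GBP2 lowered at an adjusted p under 0.05. Of all 16126 genes there, 1490 were raised and 1926 lowered. In simulated data with the spread of these 6 libraries, the limma fit recovered 0% of genes changed 2-fold, and 54% without RPMI-1640 library 1. The simulation changed few genes and drew noise for each gene independently, so these rates are not the power on the real data. On all 6 real libraries the same fit called 414 genes raised and 585 lowered. Without RPMI-1640 library 1, 23 of the 45 members rose and 3 fell, against 19.9% and 21.7% of all 16038 genes tested. The members' median log2 change was then 0.39, where that of all genes was 0.01. With all 6 libraries these medians were 0.05 and -0.07.

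What library 1 did to the group is seen member by member. It was the highest of the 3 RPMI-1640 libraries for 40 of 45 members, against 52.8% of all genes, and the lowest for the other 5 (IRF1, IRF7, IRF9, GBP2 and OASL), against 38.5%. For 27 members it lay at least 2-fold above the mean of the other libraries on the log2(TPM + 1) scale, against 13.8% of genes. The median log2 gap was 1.22 over members and 0.15 over all genes. It also lay above all 3 HPLM libraries for 39 members (51.7% of all genes) and below all of them for 6 (35.2%), which were IFIT2, IRF1, IRF7, IRF9, STAT2 and XAF1. Libraries 2 and 3 both lay below all HPLM libraries for 28 members (31.3% of all genes) and both above for 5 (33.4%). For 24 members, against 12.7% of all genes, the HPLM libraries lay between library 1 above and libraries 2 and 3 below. Other values moved with library 1. The colon marker KRT20 held 1504, 875 and 863 TPM in libraries 1 to 3, and LGALS4 held 511, 1004 and 979 TPM. The leukocyte list summed to at most 49.3 TPM in the RPMI-1640 libraries, and its member CD14 was lower in library 1, at 6.60 TPM against 35.7 and 33.4 TPM. Their part in the members' levels was not tested.

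**Figure D4:**
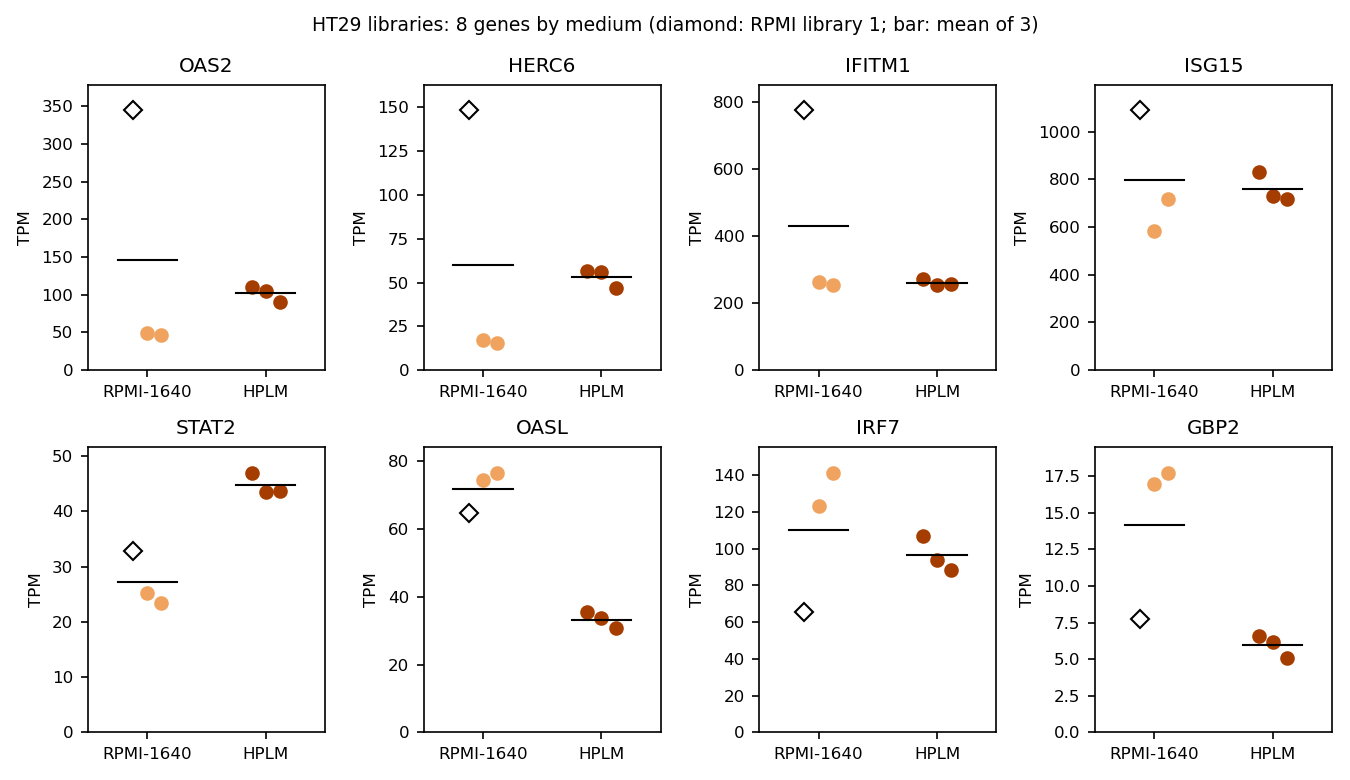
TPM of 8 members in each HT29 library, by medium. The open diamond is RPMI-1640 library 1, filled points are the other libraries, and the bar is the mean of 3. For OAS2, HERC6, IFITM1 and ISG15 the diamond lies above every other library, for STAT2 it lies below all HPLM libraries, and for OASL, IRF7 and GBP2 it is the lowest RPMI-1640 library.

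Of the 13 genes of the antiviral families, 10 rose, 1 fell and 2 did not pass without library 1. OAS2 held 344 TPM in library 1, against 49.0 and 46.2 TPM in libraries 2 and 3, a ratio of 7.24. Its HPLM libraries held 111, 105 and 90.4 TPM. The log2 change was 0.14 ± 0.76, adjusted p = 0.933 with all libraries and 1.08 ± 0.12, adjusted p = 0.00101 without library 1. OAS1 held 289, 124 and 116 TPM in RPMI-1640 and 175, 163 and 144 TPM in HPLM, and OAS3 held 409.8, 89.4 and 85.4 TPM in RPMI-1640 and 158, 158 and 134 TPM in HPLM. Their log2 changes were -0.01 and 0.03 with all libraries. Without library 1 they were 0.41, adjusted p = 0.0331 and 0.77, adjusted p = 0.00304. The OAS1 call was lost with no filter, with the replicate block and when HPLM library 1 or 2 was also left out. OASL, the family member that lacks synthase activity and promotes RIG-I signalling, fell either way. It held 64.7, 74.4 and 76.5 TPM in RPMI-1640 and 35.4, 33.6 and 30.7 TPM in HPLM, every HPLM library being below every RPMI-1640 library, and its log2 change was -1.09 ± 0.15, adjusted p = 0.017 with all libraries and -1.16 ± 0.11, adjusted p = 0.000515 without library 1. With all libraries this call was lost when any library other than library 1 was left out, at log2 changes that stayed at -0.94 or below.

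MX1 changed by 0.21 ± 0.58, adjusted p = 0.863 with all libraries and by 0.92 ± 0.12, adjusted p = 0.0016 without library 1, and library 1 held 4.54 times the mean of the others. MX2 held 32.1, 8.52 and 7.46 TPM in RPMI-1640 and 13.8, 14.4 and 12.3 TPM in HPLM, a change of 0.06, adjusted p = 0.955 and of 0.69, adjusted p = 0.00475 respectively. IFIT1 changed by 0.16, adjusted p = 0.816 with all libraries and 0.57, adjusted p = 0.00817 without. IFIT2, an RNA-binding partner of IFIT1, differed from these in that library 1 was close to the others. It held 29.5, 26.6 and 26.5 TPM in RPMI-1640 and 43.7, 44.9 and 38.0 TPM in HPLM, so that all HPLM libraries were above all RPMI-1640 libraries, and it changed by 0.60 ± 0.15, adjusted p = 0.0683 with all libraries and 0.65 ± 0.12, adjusted p = 0.00532 without. IFIT3 held 209, 67.4 and 56.3 TPM in RPMI-1640 and 146, 141 and 114 TPM in HPLM, and passed without library 1, at 1.09, adjusted p = 0.00194, not with it, at 0.51, adjusted p = 0.571. IFITM1 held 774, 264 and 252 TPM in RPMI-1640 and 271, 253 and 256 TPM in HPLM and did not pass in either fit (-0.52, adjusted p = 0.52 and 0.01, adjusted p = 0.942). IFITM2 held 278, 123 and 126 TPM in RPMI-1640 and 182, 168 and 161 TPM in HPLM, and IFITM3 held 1221, 358 and 364 TPM in RPMI-1640 and 634, 604 and 577 TPM in HPLM. Without library 1 they rose by 0.45, adjusted p = 0.0159 and 0.74, adjusted p = 0.00204.

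Of the 20 other effectors, 9 rose, 1 fell and 10 did not pass without library 1, and none passed with all libraries. XAF1 had the largest rise of the 45 members in that fit. Its libraries are given above, with all HPLM libraries above all RPMI-1640 libraries, library 1 included, and the change was 1.5 ± 0.38, adjusted p = 0.0746 with all libraries and 1.95 ± 0.12, adjusted p = 0.000138 without library 1. TRIM22, an E3 ligase that restricts retroviruses, held 25.4, 2.15 and 2.09 TPM in RPMI-1640 and 10.1, 10.2 and 9.99 TPM in HPLM. Library 1 held 12 times the mean of the others, the widest gap of any member, and the change was 0.80 ± 0.82, adjusted p = 0.601 with it and 1.83 ± 0.10, adjusted p = 8.67e-05 without it. SAMD9L, the paralogue next to SAMD9 on chromosome 7, held 16.1, 3.68 and 3.42 TPM in RPMI-1640 and 13.4, 13.1 and 12.2 TPM in HPLM and rose by 1.61, adjusted p = 0.000155 without library 1. SAMD9 held 186, 50.8 and 38.9 TPM in RPMI-1640 and 88.6, 87.7 and 70.6 TPM in HPLM, at 0.87, adjusted p = 0.00642. RSAD2 rose by 1.37, adjusted p = 0.000319 without library 1, against 0.79, adjusted p = 0.363 with it. IFI44L held 105, 35.6 and 33.4 TPM in RPMI-1640 and 92.2, 89.3 and 84.1 TPM in HPLM and changed by 1.33, adjusted p = 0.00027 without library 1.

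IFI44, the neighbour of IFI44L, held 559.6, 295 and 321 TPM in RPMI-1640 and 334, 325 and 309 TPM in HPLM and did not pass, with changes of -0.22, adjusted p = 0.661 with all libraries and 0.07, adjusted p = 0.641 without library 1. IFI6 rose by 0.58, adjusted p = 0.01 without library 1, and IFI27 did not pass in either fit, at -0.28 and -0.17. BST2 held 1122, 388 and 395 TPM in RPMI-1640 and 448, 428 and 374 TPM in HPLM, with changes of -0.42, adjusted p = 0.594 and 0.08, adjusted p = 0.595. PARP14 held 181, 84.4 and 76.5 TPM in RPMI-1640 and 124, 114 and 107 TPM in HPLM, and rose by 0.51, adjusted p = 0.0128 without library 1. LGALS3BP did not pass, at 0.10, adjusted p = 0.747 and 0.20, adjusted p = 0.189. GBP2 was the one effector of this list that fell. It held 7.78, 17.0 and 17.7 TPM in RPMI-1640 and 6.61, 6.17 and 5.10 TPM in HPLM, so that library 1 lay near the HPLM libraries, and its change was -1.05 ± 0.32, adjusted p = 0.105 with all libraries and -1.41 ± 0.13, adjusted p = 0.000444 without library 1.

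In the ISG15 system, HERC6, HERC5 and USP18 rose without library 1, and ISG15 and UBE2L6 did not pass. HERC6 held 148, 17.2 and 15.4 TPM in RPMI-1640 and 56.6, 55.9 and 46.9 TPM in HPLM, and changed by 0.61 ± 0.83, adjusted p = 0.703 with all libraries and 1.64 ± 0.13, adjusted p = 0.000259 without library 1. USP18 held 62.7, 14.7 and 12.7 TPM in RPMI-1640 and 31.5, 29 and 24.0 TPM in HPLM, and changed by 0.28 ± 0.58, adjusted p = 0.81 and 0.99 ± 0.14, adjusted p = 0.00248. ISG15 changed by -0.02, adjusted p = 0.966 and 0.23, adjusted p = 0.212, and its RPMI-1640 libraries 2 and 3 overlapped the HPLM libraries. With all 6 libraries none of the 5 genes passed, and library 1 lay above all HPLM libraries in each of them.

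Of the 7 genes of the list of transcription factors and sensor, 1 rose, 1 fell and 5 did not pass without library 1. STAT2, a subunit of ISGF3, held 32.8, 25.3 and 23.5 TPM in RPMI-1640 and 47.0, 43.4 and 43.8 TPM in HPLM. All HPLM libraries lay above all RPMI-1640 libraries, and the change was 0.71 ± 0.17, adjusted p = 0.067 with all libraries and 0.85 ± 0.11, adjusted p = 0.00134 without library 1. IRF7 held 65.8, 123 and 141 TPM in RPMI-1640 and 107, 93.6 and 88.5 TPM in HPLM and fell without library 1, at -0.45 ± 0.13, adjusted p = 0.0291, while with it the change was -0.12, adjusted p = 0.843. The IRF7 call was lost with no filter and when HPLM library 2 or 3 was also left out. IRF1 held 17.3, 24.0 and 23.2 TPM in RPMI-1640 and 23.6, 21.3 and 21.4 TPM in HPLM, with overlap, and changed by 0.05, adjusted p = 0.893 and -0.09, adjusted p = 0.517. IRF9 changed by 0.33, adjusted p = 0.283 and 0.21, adjusted p = 0.162, IRF2 by -0.28, adjusted p = 0.378 and -0.18, adjusted p = 0.309, and IRF3 by -0.14, adjusted p = 0.637 and -0.04, adjusted p = 0.798. IFIH1 held 112, 65.9 and 61.9 TPM in RPMI-1640 and 61.8, 58.8 and 55.9 TPM in HPLM and changed by -0.38, adjusted p = 0.398 and -0.12, adjusted p = 0.402.

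**Figure D5:**
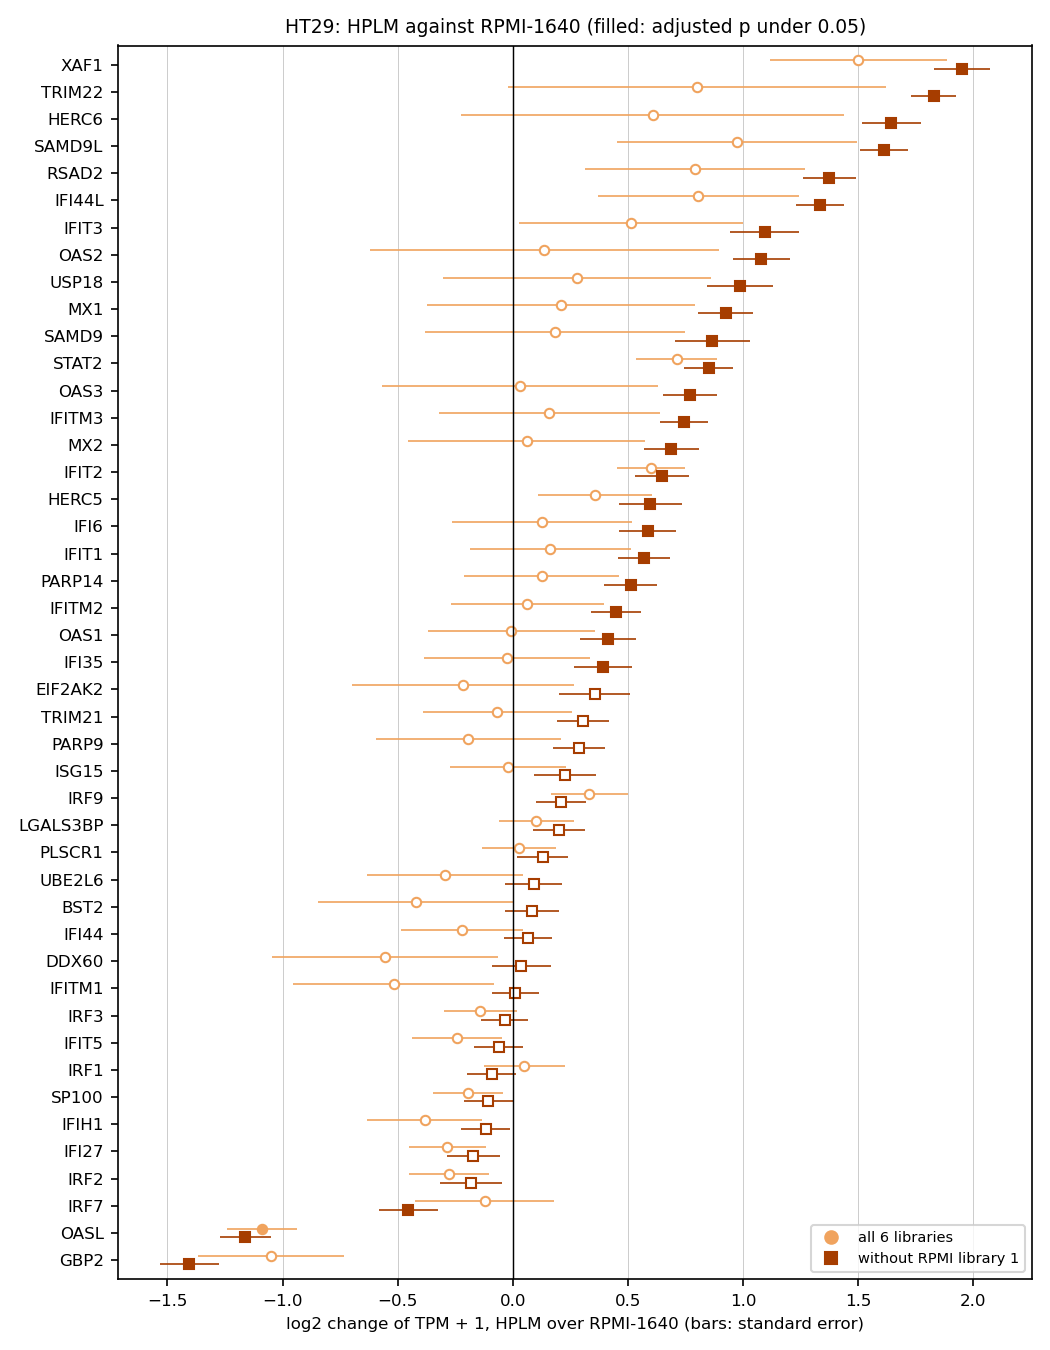
Log2 change of TPM + 1 in HT29 between HPLM and RPMI-1640 for the 45 genes. Light circles use all 6 libraries and dark squares leave out RPMI-1640 library 1, filled symbols have an adjusted p under 0.05, and bars are the standard error. The only filled circle is OASL, and the filled squares are 23 genes above 0 and 3 below.

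Whether the medium acted differently on the members in the 2 lines was tested as the HT29 change minus the H441 change over all 12 libraries. With all libraries 3 members were positive (IFIT2, STAT2 and XAF1) and 3 negative (IRF1, OASL and SP100), against 3.0% and 11.4% of all genes. The IRF1 difference was -1.07 ± 0.19, adjusted p = 0.00488, with a rise in H441 and overlapping levels in HT29. STAT2 differed by 0.77 ± 0.17, adjusted p = 0.0145 and XAF1 by 1.5 ± 0.42, adjusted p = 0.0399. The XAF1 call was lost in 11 of the 12 fits that left out 1 library, with a pseudocount of 0.1 and with no filter, and SP100 did not pass after trimmed mean scaling. XAF1 stayed under 1 TPM in every H441 library, where a change was not detectable at this depth. Without library 1, 25 members were positive and 5 negative, against 10.1% and 25.9% of all genes. RSAD2, 1 of the 25, was likewise under 1 TPM in every H441 library. The widest positive differences were then TRIM22 at 2.07 ± 0.22, XAF1 at 1.96 ± 0.12, HERC6 at 1.91 ± 0.14 and SAMD9L at 1.82 ± 0.12. OAS1 and OAS3, which fell in H441, differed by 1.25 ± 0.12 and 1.36 ± 0.12, with adjusted p = 7.87e-05 and 5.14e-05 in limma. The negative members were IRF1, GBP2, OASL, IRF7 and SP100, at -1.21, -1.09, -1.07, -0.83 and -0.46.

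Genes that act around the members in the pathway were read from 4 lists. Of 15 interferon genes, 12 stayed below 1 TPM in every library and 5 of these (IFNA2, IFNA5, IFNA6, IFNA13 and IFNK) were at 0 throughout. IFNE, an epithelial type I interferon, was the one gene of the list with values above 1 TPM in more than 3 libraries. In H441 it held 0, 0 and 0.180 TPM in RPMI-1640 and 0.140, 0 and 0 TPM in HPLM. In HT29 it held 0.331, 1.77 and 1.96 TPM in RPMI-1640 and 6.96, 5.47 and 4.71 TPM in HPLM, library 1 being the lowest, and rose by 1.58 ± 0.34, adjusted p = 0.0473 with all libraries and 1.22 ± 0.16, adjusted p = 0.00154 without library 1. The call with all libraries was lost when any library other than library 1 was left out, and in 4 of 9 other settings. IFNL3, a type III interferon, held 3.80, 0 and 0.605 TPM in the HT29 RPMI-1640 libraries 1 to 3, at most 0.582 TPM in HPLM, and 0 in H441. IFNB1, the first type I interferon made on infection, reached at most 1.04 TPM, in HT29 HPLM library 2.

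Counts in these lists are to be read against the shares of all genes given above for each comparison, 33.7% raised and 11.3% lowered in H441. Among the receptors, kinases and STATs, H441 had 4 of 10 tested genes raised in HPLM and 1 lowered, IL10RB, a shared receptor chain for type III interferon, at -0.19, adjusted p = 0.041. This H441 call was lost in 5 of the 6 fits that left out 1 library, with no filter and with the replicate block. IL10RB also fell in HT29 without library 1, at -0.70, adjusted p = 0.00841. Of the 14 genes of nucleic acid sensing and interferon induction, 12 were tested in H441, where 5 rose and 1, STING1, fell. CGAS, the cytosolic DNA sensor, rose in H441 from 13.0, 12.7 and 11.6 to 22.5, 21.8 and 23.8 TPM (0.82 ± 0.06, adjusted p = 0.000532). In HT29 CGAS held 28.3, 17.7 and 15.1 TPM in RPMI-1640 and 11.5, 11.5 and 10.9 TPM in HPLM and fell without library 1, at -0.49, adjusted p = 0.014. STING1, the adaptor downstream of CGAS, held 37.5, 38.5 and 34.6 TPM in RPMI-1640 and 31.2, 33.2 and 32.5 TPM in HPLM in H441 (-0.19, adjusted p = 0.0487) and 11.5, 8.68 and 9.80 TPM in RPMI-1640 and 23.6, 22.2 and 20.1 TPM in HPLM in HT29, where it rose by 1.07 ± 0.16, adjusted p = 0.0221 with all libraries and 1.17 ± 0.12, adjusted p = 0.000637 without library 1. The H441 call was lost in 5 of the 6 fits that left out 1 library and in 3 of 9 other settings, and the HT29 call with all libraries was lost when any library other than library 1 was left out and with the replicate block.

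The RNA sensor RIGI rose in H441, from 13.4, 12.2 and 13.0 to 18.0, 18.8 and 17.8 TPM (0.47, adjusted p = 0.00161). In HT29 it held 97.9, 26.1 and 22.9 TPM in RPMI-1640 and 52.7, 49.2 and 42.0 TPM in HPLM and rose by 0.94, adjusted p = 0.00228 without library 1. TRAF3, a signalling adaptor, and TRIM25, the ligase that activates RIG-I, rose in H441 by 0.55, adjusted p = 0.00188 and 0.57, adjusted p = 0.00254. In HT29 they did not pass in either fit, with changes of -0.28 and 0.03 without library 1. IFI16, a nuclear DNA sensor, rose in H441 by 0.37, adjusted p = 0.00222 and in HT29 without library 1 by 1.38, adjusted p = 0.000266. Also without library 1, the kinase IKBKE rose by 1.14, adjusted p = 0.00134, the Z-nucleic acid sensor ZBP1 rose by 1.22, adjusted p = 0.000308, and TICAM1, the adaptor of TLR3, fell, at -0.78, adjusted p = 0.00273. ZBP1 met the filter through its HPLM libraries alone, so that the filter itself favoured a rise. Of the 6 feedback inhibitors, PTPN2, a phosphatase of JAK1, rose in H441 by 0.57, adjusted p = 0.00144, and in HT29 by 0.42, adjusted p = 0.0211 without library 1. Its HT29 call was lost with the replicate block and when HPLM library 1 or 2 was also left out. SOCS1 held 0.355, 0 and 0.760 TPM in RPMI-1640 and 1.01, 1.61 and 1.64 TPM in HPLM in H441 (0.85, adjusted p = 0.0291), but did not pass in 5 of 7 other settings, trimmed mean scaling among them. SOCS1 too met the filter through its HPLM libraries alone, which favoured a rise. SOCS3 fell in HT29 without library 1, at -0.63, adjusted p = 0.0073. Over all 4 lists, 11 of 28 genes tested rose and 2 fell in H441, and 7 rose and 5 fell after trimmed mean scaling, against 22.5% of all genes in each direction. In HT29, 2 of 31 rose and 0 fell with all libraries in limma, against 2.53% and 3.58% of all genes. Without library 1, 11 of 31 rose and 6 fell, against 19.9% and 21.7%.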

How the data were processed

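Polyadenylated RNA was extracted with a column kit and made into libraries with Illumina TruSeq RNA v2, which does not mark strand, per the labels' protocols. The submitters' processing notes name the build GRCh38 and the tools DESeq2 (no version), Subread 1.5.2, STAR 2.5.2b and Trimmomatic 0.36, and the gene annotation is not given in the sources used here. The authors deposited TPM per library, and, per the file headers, a comparison table for each line with normalized counts (a signal of reads divided by a size factor), a log2 fold change, a p-value and an adjusted p-value. Whole reads were recovered from that deposited signal: 100% of values in each library came out within 0.01 of a whole read.

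TPM was tested as log2(TPM + 1) in limma 3.58.1 (R 4.3.3), two-sided, for genes with at least 1 TPM in at least 3 libraries, with Benjamini-Hochberg adjustment over all genes tested. A fold change on this scale understates the change of low genes. The fit was tested on simulated data, where it recovered 96% of genes changed 2-fold in H441 (16458 genes), 0% in HT29 (16352 genes) and 54% in HT29 without RPMI-1640 library 1 (16038 genes). Few genes were changed there and noise was drawn independently for each gene, so these rates are not the power on the real data. Alternatives were a pseudocount of 0.1, no filter, 2 scalings, leaving out mitochondrially encoded genes, quality weights, edgeR 4.0.16 on recovered reads, the authors' table, a replicate block and leaving out each library. Genes with values in every library are 24 chosen by name, and any other member called in H441 or in HT29 without library 1 with a log2 change of at least 0.5 and a group mean of at least 5 TPM. Pathway genes are named from a change of 0.5 and a mean of 1 TPM. Members and lists were chosen with earlier results of these data known. Gene coordinates are from GENCODE (GRCh38) and promoters from RefSeq (GRCh38.p14).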

Additional observations from a re-analysis of the deposited data

Results flagged for a closer look

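In 12 genes the effect of the medium differed between the lines by limma's test of that difference over all 12 libraries (adjusted p under 0.05), given as the HT29 log2 change minus the H441 log2 change. The members were IFIT2 (0.61, adjusted p = 0.0136), STAT2 (0.77, adjusted p = 0.0145), XAF1 (1.5, adjusted p = 0.0399), IRF1 (-1.07, adjusted p = 0.00488), OASL (-0.99, adjusted p = 0.00422) and SP100 (-0.54, adjusted p = 0.0276). Without HT29 RPMI-1640 library 1 they stood at 0.66, 0.91, 1.96, -1.21, -1.07 and -0.46, all past the threshold. The XAF1 call was lost in 11 of the 12 fits that left out 1 library and in 2 of 6 other settings, and SP100 did not pass after trimmed mean scaling. The pathway genes were IFNE (1.60, adjusted p = 0.019), STING1 (1.25, adjusted p = 0.00105), CGAS (-1.56, adjusted p = 0.00391), TRAF3 (-1.19, adjusted p = 0.0492), TRIM25 (-0.73, adjusted p = 0.0481) and PIAS1 (-0.46, adjusted p = 0.0495). Without that library they stood at 1.23, 1.35, -1.31, -0.82, -0.54 and -0.40, also past the threshold. The TRAF3 call was lost in 9 and the TRIM25 call in 10 of the 12 fits that left out 1 library, and each in 4 of 7 other settings. PIAS1 did not pass after trimmed mean scaling, and IFNE did not pass with a pseudocount of 0.1 or without H441 RPMI-1640 library 3. XAF1 and IFNE were under 1 TPM in every H441 library and met the filter through HT29 libraries alone. The line cannot be told apart from any batch between the deposited tables.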

How the results depend on the processing

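In H441, 14 lowered members became 22 with trimmed mean scaling, 23 with median centring, 23 with edgeR on recovered reads and 8 with the replicate block, and the 7 raised ranged from 5 to 7 over the settings. Of all genes, 3704 of 16458 fell with trimmed mean scaling, 4171 with median centring and 4193 of 15405 with edgeR. In HT29 with all libraries, 0 raised became 1 without the filter, 3 with trimmed mean scaling, 2 with median centring, 3 without mitochondrially encoded genes, 13 with quality weights, 3 with edgeR and 3 in the authors' deposited table. The 1 lowered became 2 with quality weights, 0 with the block and 2 in the authors' table. Of all genes, 855 of 16352 rose with trimmed mean scaling, 756 with median centring and 987 of 17623 without mitochondrially encoded genes. With quality weights, members lower in HT29 than in H441 in RPMI-1640 were 6 instead of 1, and members whose medium effect differed were 27 positive and 5 negative instead of 3 and 3. edgeR gave 5 positive, where 911 of all 13960 genes were. The quality weights stopped before convergence in several fits, and their counts are given without the share of all genes.

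Leaving out 1 library at a time gave 6 to 6 raised and 9 to 14 lowered in H441, 0 to 23 and 0 to 3 in HT29, and 19 to 25 and 2 to 3 in HT29 without library 1. It gave 32 to 36 higher and 1 to 5 lower in HT29 in RPMI-1640, 35 to 41 and 1 to 1 in HPLM, and 2 to 25 positive and 2 to 5 negative for the difference. Shares of all genes are given above for the fits without HT29 RPMI-1640 library 1 only. For the other left-out fits, moves of the members and of all genes are not separated. A gene-level reversal was seen once: USP18 in H441 was -0.0068 with median centring. Of 385 values for the genes named in H441, 328 kept direction and call and 56 lost the call. In HT29 without library 1, 433 of 452 did so and 19 lost the call. With all HT29 libraries 21 of 45 lost it, and for the difference between lines 42 of 188.

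The replicate block gave 6 raised and 8 lowered in H441, 0 and 0 in HT29, and 20 and 3 in HT29 without library 1. These block counts are given without the share of all genes and do not separate the members from all genes. Deviations of same-numbered libraries correlated at -0.03, 0.02 and -0.00 in H441 and 0.05, -0.10 and 0.17 in HT29, so that the numbers were not taken to pair the libraries. The cause of these moves was not tested. Depth limits XAF1, RSAD2 and most interferon genes, which are under 1 TPM in H441.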
